A study of Homo sapiens with 6 samples.

Results

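The MHC class I chains and the proteins that load peptides on them were examined as 10 genes: the heavy chains HLA-B, HLA-C, HLA-E and HLA-F, the light chain B2M, the peptide transporter subunits TAP1 and TAP2, the loading chaperone TAPBP, the trimming peptidase ERAP1 and the transactivator NLRC5. They were picked by symbol, with earlier results of these arrays known, so their count of calls is a description of a chosen list. A probe set (the group of short probes that reads 1 transcript on the array) was kept where the platform annotation gave it exactly 1 symbol and that symbol was on the list. All 10 genes were found, with 30 probe sets, of 19775 genes and 54613 probe sets measured. The cells were HT29, an established line from a human colorectal adenocarcinoma, plated at 300000 cells and grown in F12 medium with 7% fetal bovine serum. On the following day 3 cultures received 500 µg of a polyphenolic cocoa extract for 24 h and 3 were controls, called untreated in the titles and saline-treated in the protocol. Total RNA of each culture was read on its own Affymetrix U133 Plus 2.0 array. The volume in which the extract was given is not stated in the sources used here, nor is it said how the 3 cultures of a group were kept apart. The p-values therefore measure only the spread between these cultures, which may be technical.

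MHC class I molecules carry peptides from inside the cell to its surface, where cytotoxic T cells and natural killer cells read them. Proteasomes cut proteins into peptides, TAP1 and TAP2 pump these into the endoplasmic reticulum, ERAP1 trims them, and TAPBP (tapasin) holds the empty heavy chain, paired with B2M, beside the transporter until a peptide is bound. The genes are known to respond to interferons and to the transactivator NLRC5, and many epithelial tumours carry less class I at the surface than the tissue they came from.

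With cocoa extract, 7 of the 10 genes were higher and none was lower: NLRC5, HLA-E, HLA-C, HLA-B, HLA-F, TAP1 and TAP2, with limma adjusted p-values (Benjamini-Hochberg over all genes) between 2.53e-05 and 0.00658. B2M, ERAP1 and TAPBP did not pass the threshold of 0.05. Over all genes 7.36% were past the same threshold in the upward and 6.12% in the downward direction. The median log2 difference (cocoa minus control) of the 10 genes was 0.62, against −0.0125 over all genes, and 6 of the 7 changed at least 1.5-fold. In 9 of the 10 genes all 3 cocoa arrays lay above all 3 control arrays, as they did in 15.4% of all genes. Leaving out any 1 array kept the count at 7 (6 fits), while the number of all genes past the threshold, 2666, was 1623 without control array 1 and 1315 without control array 2.

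**Figure D1:**
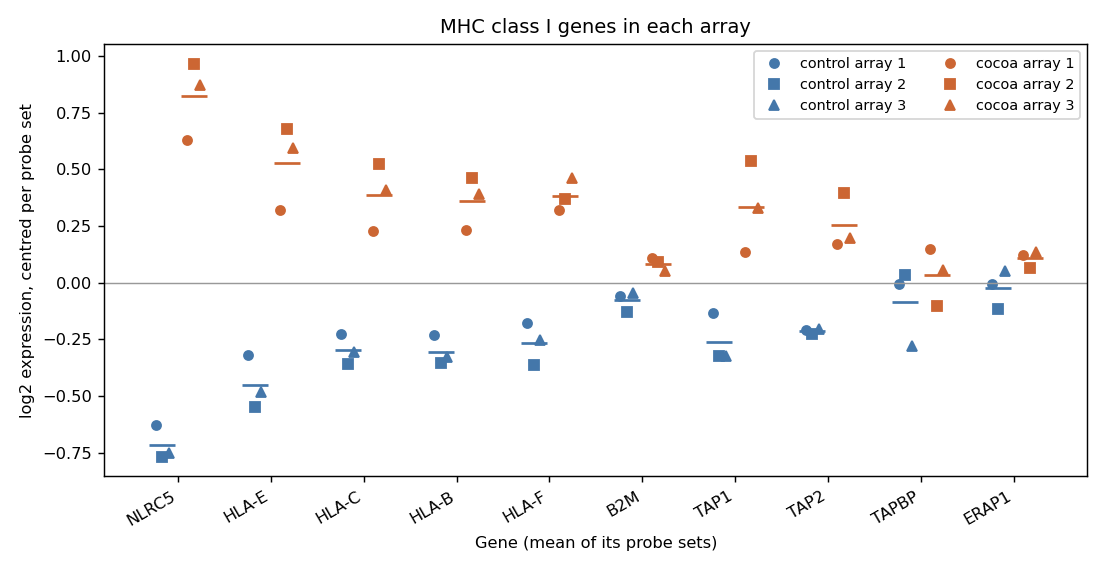
Centred log2 expression of the 10 genes (y axis; mean over a gene's probe sets) in the 3 control and 3 cocoa arrays, with the group means as bars. The groups stand furthest apart in NLRC5 and HLA-E, and they overlap only in TAPBP.

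The deposited values are log2 expression from which each probe set's median over the 6 arrays had been removed, so they compare arrays and give no level of expression. The median lies midway between the third and the fourth of 6 ordered values. Where the groups do not overlap, the highest control and the lowest cocoa value of a probe set therefore mirror each other around 0. In RNA from whole cultures, more cells that express a gene and more RNA per cell cannot be told apart.

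NLRC5, a member of the NOD-like receptor family that enters the nucleus and activates class I genes, had the largest difference of the 10. Its centred log2 values were −0.63, −0.77 and −0.75 in control arrays 1, 2 and 3, and 0.63, 0.97 and 0.87 in cocoa arrays 1, 2 and 3. All cocoa arrays were far above all controls, with cocoa array 1 the lowest of them. The log2 difference was 1.54 (SE 0.0931, 95% interval 1.33 to 1.75, n = 3 arrays per group, limma adjusted p = 2.53e-05), a 2.91-fold increase. By its p-value NLRC5 stood at rank 28 of all 19775 genes. It rests on 1 probe set.

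HLA-E, a heavy chain of little variation that presents leader peptides of other class I chains to natural killer cell receptors, had the second largest difference. It read −0.32, −0.55 and −0.48 in the controls and 0.32, 0.68 and 0.59 with cocoa. The groups were separate, and cocoa array 1 was again the lowest of its group. The log2 difference was 0.98 (SE 0.103, 95% interval 0.748 to 1.21, limma adjusted p = 0.000536), a 1.97-fold increase. Its 3 probe sets read 1.23, 0.94 and 0.77, each past the threshold over all probe sets. The largest came from the probe set whose suffix, _at, marks no known match to other transcripts.

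HLA-B and HLA-C encode classical heavy chains, the molecules that present peptides to cytotoxic T cells. HLA-B read −0.23, −0.36 and −0.33 in the controls and 0.23, 0.46 and 0.39 with cocoa, a 1.59-fold increase (log2 difference 0.67, SE 0.0781, limma adjusted p = 0.000923). HLA-C read −0.23, −0.36 and −0.31 in the controls and 0.23, 0.52 and 0.41 with cocoa, a 1.61-fold increase (log2 difference 0.68, SE 0.085, limma adjusted p = 0.00122). In both genes every cocoa array lay above every control, and the order of the arrays was the same. All 7 probe sets of the pair carry the suffix _x_at, which marks probes that can match several transcripts, and their differences lay between 0.63 and 0.73. The coding sequences of these genes are close to each other, so the readings of HLA-B and HLA-C may be in part the same signal and are uncertain as separate values.

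HLA-F, a heavy chain that can reach the surface without peptide and is bound by natural killer cell receptors, read −0.18, −0.36 and −0.26 in the controls. With cocoa it read 0.32, 0.37 and 0.46. The groups were separate, and in this mean of the probe sets cocoa array 3 was the highest. The probe sets differed in that order. Those with the suffix _x_at read 0.20, 0.51 and 0.40, and 0.22, 0.48 and 0.39, in cocoa arrays 1, 2 and 3. The one with the suffix _at read 0.54, 0.11 and 0.59, with cocoa array 2 the lowest. The _x_at readings may share signal with the other heavy chains. The increase was 1.57-fold (log2 difference 0.65, SE 0.0739, limma adjusted p = 0.000801). Its 3 probe sets read 0.65, 0.62 and 0.67 on the log2 scale. The last of these, the only one with the suffix _at, was past the threshold over all probe sets (adjusted p = 0.0208) but not without control array 2, control array 3 or cocoa array 3 (0.0977, 0.0715 and 0.0711).

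B2M, the light chain common to all of these molecules, moved less. It read −0.060, −0.13 and −0.048 in the controls and 0.11, 0.089 and 0.052 with cocoa, so that the groups were separate by a small margin. The log2 difference was 0.16 (SE 0.062, 95% interval 0.023 to 0.303, n = 3 arrays per group, limma adjusted p = 0.123). Both probe sets with the suffix _s_at (a possible match to several transcripts of 1 gene or family) read 0.27 and 0.25, with adjusted p-values of 0.0785 and 0.0657 over all probe sets. The third read −0.036 (0.893). With the median of the probe sets in place of their mean, the difference was 0.22 and passed the threshold (limma adjusted p = 0.0392).

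The heavy chains and B2M were also set against each other within each array. The mean of the 4 heavy chains minus B2M was −0.179, −0.278 and −0.295 on the centred log2 scale in the controls and 0.164, 0.417 and 0.411 with cocoa. NLRC5 minus the mean of the 4 heavy chains was −0.39, −0.361 and −0.409 in the controls and 0.354, 0.459 and 0.41 with cocoa. In both quantities the groups did not overlap, with group differences of 0.58 and 0.79. The exact two-sided permutation test gave p = 0.1 for each, which is the smallest p that 3 against 3 arrays allow (p = 0.1 also after adjustment over 3 such comparisons). The test could not pass a threshold of 0.05 in this design, and the probe set of B2M at −0.036 lowers its mean.

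TAP1 and TAP2 together form the transporter that brings peptides into the endoplasmic reticulum. TAP1 read −0.13, −0.33 and −0.32 in the controls and 0.13, 0.54 and 0.33 with cocoa. The lowest cocoa array and the highest control, both array 1 of their group, were the closest pair among the 7 genes that rose. The increase was 1.51-fold (log2 difference 0.59, SE 0.105, 95% interval 0.356 to 0.83, limma adjusted p = 0.00658). TAP1 has 1 probe set, with the suffix _s_at. Over all probe sets its adjusted p was 0.0175, and 0.0848 without control array 2, 0.0643 without control array 3 and 0.057 without cocoa array 3. Over all genes the call held without any 1 array (0.00387 to 0.0351).

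TAP2 read −0.21, −0.23 and −0.20 in the controls and 0.17, 0.40 and 0.20 with cocoa. The controls lay close together and cocoa array 2 stood above the other cocoa arrays. The increase was 1.38-fold (log2 difference 0.47, SE 0.0754, limma adjusted p = 0.00428). Of its 4 probe sets 3 rose, with log2 differences of 0.78, 0.51 and 0.48, and the fourth read 0.092 (limma adjusted p = 0.627 over all probe sets). The probe set at 0.51 was not past the threshold without control array 1, 2 or 3 (0.0528, 0.0786 and 0.0705), and the one at 0.48 was not without control array 2 (0.0546).

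TAPBP, the tapasin chaperone of the loading complex, was the only one of the 10 genes whose groups overlapped. It read −0.0075, 0.032 and −0.28 in the controls and 0.15, −0.10 and 0.057 with cocoa. Control array 3 was the lowest of all, and cocoa array 2 lay below the other controls. The log2 difference was 0.12 (SE 0.1, 95% interval −0.107 to 0.344, limma adjusted p = 0.515). None of its 3 probe sets passed, at 0.38, 0.10 and −0.12. In the first of these all cocoa arrays lay above all controls (95% interval 0.063 to 0.694, limma adjusted p = 0.146 over all probe sets). The groups overlapped in the others.

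ERAP1, the aminopeptidase that trims peptides to the length class I binds, read −0.0055, −0.12 and 0.049 in the controls and 0.12, 0.064 and 0.13 with cocoa. The groups were separate by a narrow margin between control array 3 and cocoa array 2. The log2 difference was 0.13 (SE 0.0683, 95% interval −0.0236 to 0.284, limma adjusted p = 0.266). Its 5 probe sets ran from −0.18 to 0.39. Only the highest passed over all probe sets (adjusted p = 0.0306), and it kept this in 1 of the 6 fits without 1 array. It was lost without any of the control arrays (0.0937, 0.119 and 0.0895 without control array 1, 2 and 3), without cocoa array 2 (0.082) and without cocoa array 3 (0.089).

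Of all 30 probe sets 19 were higher, none was lower and 11 did not pass, while over all 54613 probe sets 4.68% were higher and 3.30% lower. The 13 probe sets of the heavy chains all rose, but those with the suffix _x_at may in part read the same signal. The count of 19 is therefore not one of separate readings. Of the 11 probe sets with the suffix _x_at, all from heavy chains, 11 rose. Of 7 with the suffix _s_at 3 rose, and of 12 with the suffix _at 5 rose: those of NLRC5, 1 each of HLA-E and HLA-F, and 2 of TAP2. When only the suffix _at was used, 7 of the 10 genes were left, and 4 of these rose: NLRC5, HLA-E, HLA-F and TAP2. HLA-B, HLA-C and TAP1 are not measured without such probe sets. In that fit B2M read −0.0362 (limma adjusted p = 0.883) and ERAP1 −0.00798 (0.972).

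**Figure D2:**
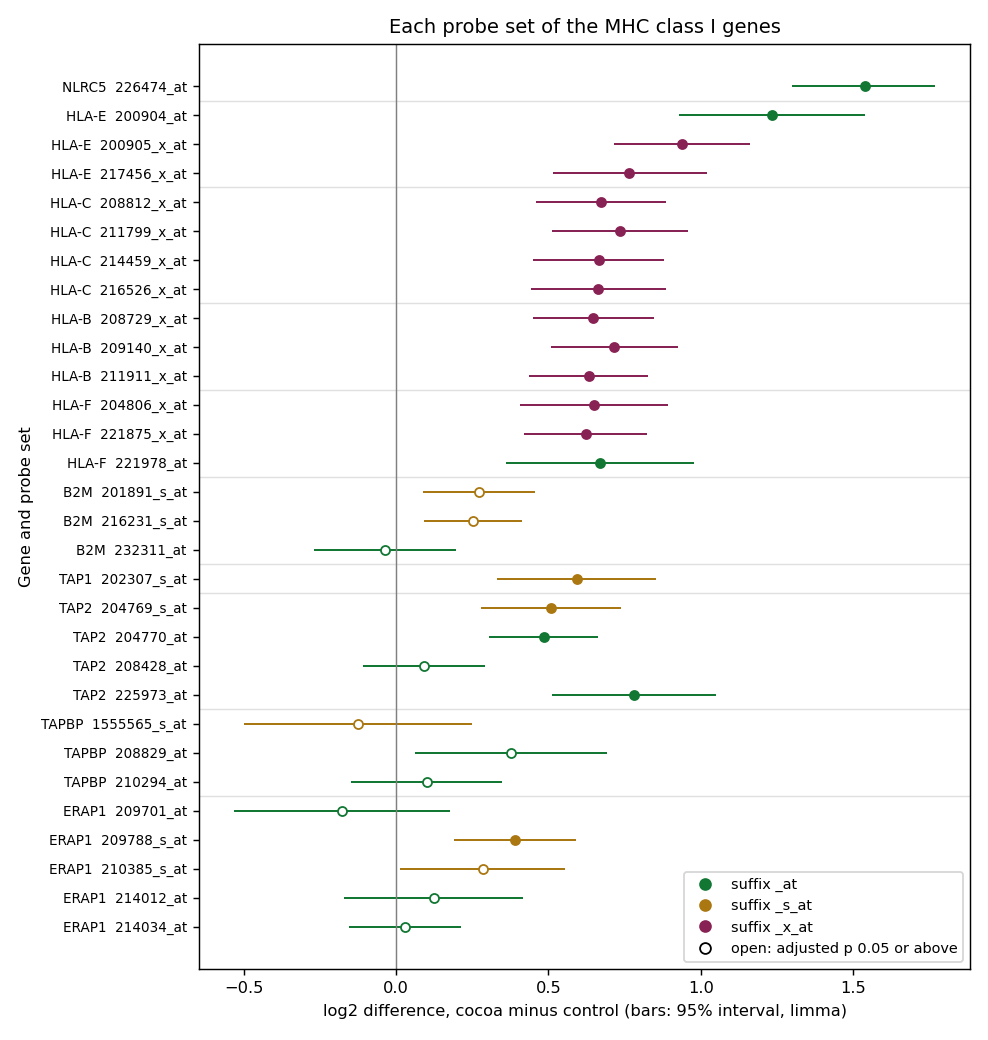
Log2 difference between cocoa and control (x axis) with its 95% interval from limma, for each of the 30 probe sets (y axis), coloured by suffix, open where the adjusted p over all probe sets was 0.05 or above. The heavy chain probe sets all lie between 0.62 and 1.23, while those of ERAP1 and TAPBP fall on both sides of 0.

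The 7 genes that rose followed a similar order among the arrays. In all 7 cocoa array 1 was the lowest cocoa array and control array 2 the lowest control. For HLA-F this holds for the mean, and its probe set with the suffix _at had cocoa array 2 lowest. In 6 of the 7 genes cocoa array 2 was the highest, the exception being HLA-F. In 6 control array 1 was the highest control, the exception being TAP2. How many other genes follow this order was not counted. Across the 6 arrays, Pearson's r between pairs of the 7 genes ran from 0.934 to 0.999 (21 pairs), a description that mostly holds the difference between the groups, since these genes share arrays and groups. TAPBP had an r of 0.108 to 0.389 with the other 9 genes. The 18S ribosomal RNA control signal was also highest in cocoa array 2 (3.31 on the centred log2 scale), followed by cocoa array 3 at 1.4, and −0.513 in cocoa array 1. The controls ran from −1.12 to 0.509. With that signal as a covariate 6 of the 10 genes were past the threshold, and TAP1 was not (log2 difference 0.465, limma adjusted p = 0.0548; 0.00224 to 0.0548 over its alternatives). The 5′ minus 3′ difference of the actin and GAPDH controls, a sign of RNA quality, was taken from the centred values. It therefore compares arrays and gives no level of quality. It also set cocoa array 2 apart, at −0.259, with −0.0525 in cocoa array 3 and 0.00896 to 0.033 in the other 4 arrays. With it as a covariate 7 of the 10 genes were past the threshold. TAPBP, which did not pass in any fit, read 0.20 and 0.23 with these covariates. The part of either signal in the differences was not tested beyond these fits.

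**Figure D3:**
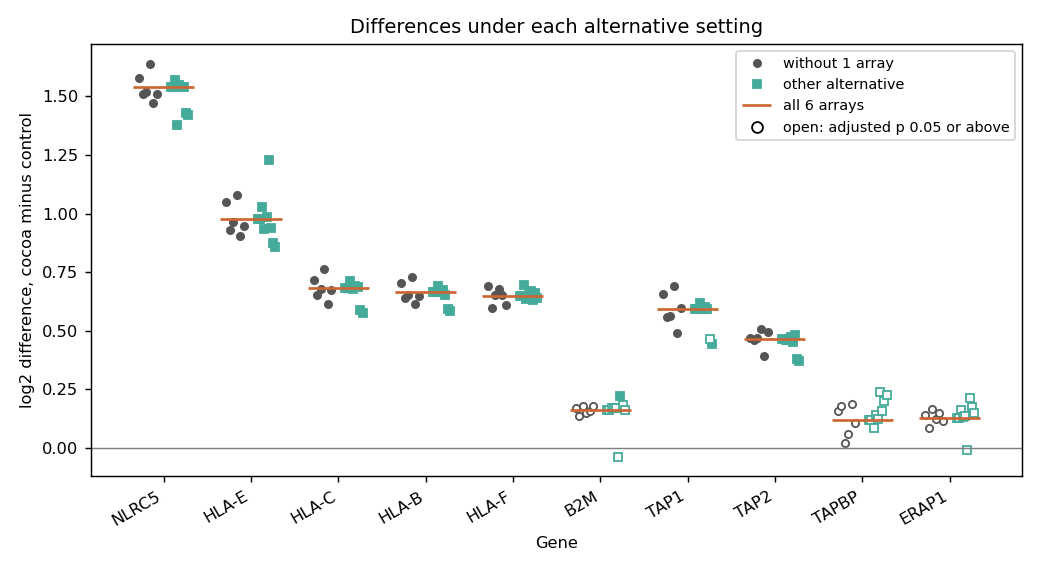
Log2 difference of each gene (y axis) in the fits without 1 array (circles) and under the other alternatives (squares), with the value from all 6 arrays as a bar and open symbols where the adjusted p was 0.05 or above. The 7 genes that rose stay between 0.37 and 1.64, and only 1 of their symbols, that of TAP1 with the 18S covariate, is open.

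Promoter windows from RefSeq (build GRCh38.p14, 250 bases before to 50 after an annotated start) matched 8 of the 10 genes, with 10 windows, and are shown because most of these genes rose. HLA-B and HLA-C come first, as the pair read only by probe sets that can match several transcripts. The stretches run from −185 to −45, counted in bases from the annotated start, on the minus strand, at chr6:31357224-31357364 for HLA-B and chr6:31272137-31272277 for HLA-C, written 5′ to 3′ in the direction of the gene. Capitals mark the letters GGGANTCCC (the NF-kappaB site of the class I enhancer A), TGACG (core of the X2 box, part of the element through which NLRC5 acts) and ATTGG (the Y box, or CCAAT on the other strand).
HLA-B: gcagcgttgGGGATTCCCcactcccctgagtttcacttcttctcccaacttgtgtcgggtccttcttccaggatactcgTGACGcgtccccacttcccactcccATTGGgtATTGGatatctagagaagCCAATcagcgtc
HLA-C: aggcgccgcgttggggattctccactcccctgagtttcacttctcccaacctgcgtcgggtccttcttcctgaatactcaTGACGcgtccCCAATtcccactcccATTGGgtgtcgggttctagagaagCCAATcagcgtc
Over the whole windows the pair was identical in 269 of 304 aligned positions (88.5%), and HLA-F matched HLA-B in 79.7% and HLA-C in 78.9%. The X2 core lies at −106 to −102 in HLA-B and at −105 to −101 in HLA-C, with Y boxes between it and the start in both. The enhancer A letters were found in HLA-B and in no other member window.

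The core of the interferon-stimulated response element was searched as TTCNNTTTC on both strands. It was found in 6 of the 10 windows, which belong to 6 of the 8 genes, against 8.11% of all 35116 windows of the same length. It is shown with 16 bases on each side, in the direction of the gene, with the match in capitals, because it was found both in genes that rose and in genes that did not pass the test. The lines are at chr6:29723263-29723303 (plus strand) for HLA-F, chr6:32853807-32853853 (minus) for TAP1, chr6:32838773-32838813 (minus) for TAP2, chr15:44711357-44711403 (plus) for B2M, chr6:33314068-33314114 (minus) for TAPBP and chr5:96807918-96807958 (minus) for ERAP1.
HLA-F: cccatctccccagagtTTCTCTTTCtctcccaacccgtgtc
TAP1: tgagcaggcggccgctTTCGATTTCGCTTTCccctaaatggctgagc
TAP2: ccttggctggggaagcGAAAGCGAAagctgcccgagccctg
B2M: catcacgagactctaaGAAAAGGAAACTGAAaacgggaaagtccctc
TAPBP: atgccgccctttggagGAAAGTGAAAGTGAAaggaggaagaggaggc
ERAP1: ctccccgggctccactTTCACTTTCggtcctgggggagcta
TAP1, B2M and TAPBP each held 2 overlapping matches. Of the genes with a match, HLA-F, TAP1 and TAP2 rose, and B2M, TAPBP and ERAP1 did not pass the test. HLA-B and HLA-C rose without these letters in their windows. Across all windows GGGANTCCC was found in 0.877%, TGACG in 24.6% and ATTGG in 34.6%. Among the 10 member windows the counts were 1, 4 and 6. No match overlapped one of another motif. A match describes letters and was not tested for binding, and a missing match says only that these letters are not in the window.

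**Figure D4:**
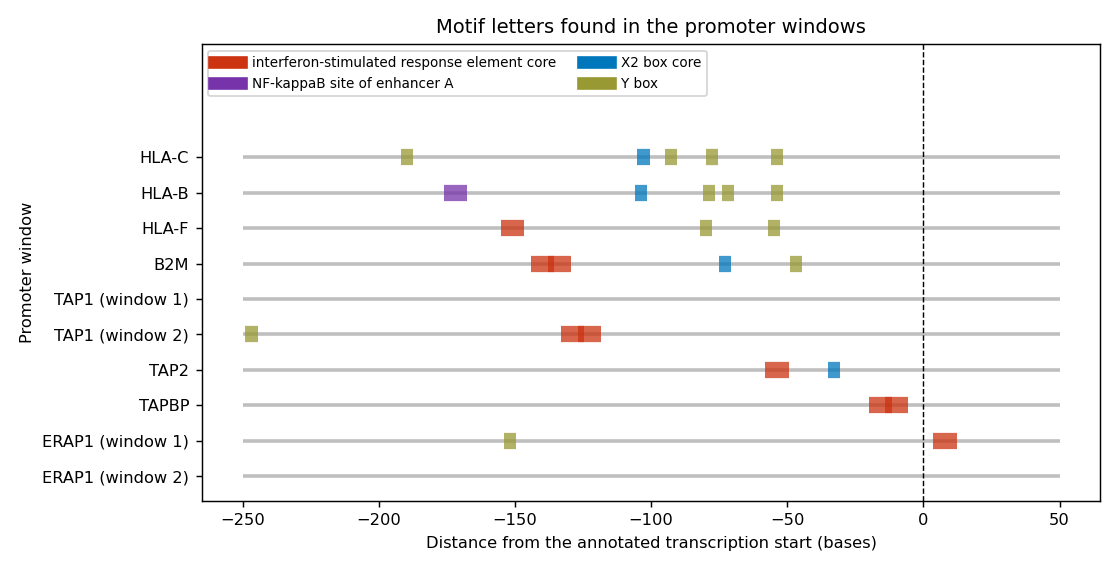
Positions of the 4 motifs (coloured blocks) in the 10 promoter windows of 8 genes, as the distance in bases from the annotated start (x axis). The response element core lies between −155 and −119 in HLA-F, B2M and TAP1, closer to it in TAP2 and TAPBP, and just after it in ERAP1.

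Around these 10 genes, 7 lists of the class I pathway held 61 genes, of which 53 were measured. Of these 12 rose, 5 fell and 36 did not pass, against the 7.36% and 6.12% of all genes. The total of 17 was 10 without control array 1 and 8 without control array 2. With the 18S covariate 8 were past the threshold. MR1, MICB, PDIA3, TPP2, PSME1, PSME3, RFX5, NFYA and AP1M1, described next, were not (limma adjusted p = 0.0512 to 0.166). In MICB, PDIA3, PSME1, RFX5 and AP1M1 the difference was no smaller than without it (0.422, 0.256, 0.33, 0.272 and −0.326), and the SE was larger. In MR1 and PSME3 it was slightly smaller (0.228 and −0.352), also with a larger SE. In TPP2 and NFYA it shrank more, from −0.434 to −0.252 and from −0.446 to −0.295. With the 5′ to 3′ covariate 11 were past the threshold, and MR1, PDIA3, TPP2, PSME3, RFX5 and AP1M1 were not (0.0509 to 0.12). The differences of PDIA3, RFX5 and AP1M1 were again no smaller (0.239, 0.282 and −0.342), and those of MR1, PSME3 and TPP2 were smaller (0.246, −0.343 and −0.263). On the suffix _at alone MR1, PDIA3, TPP2 and AP1M1 were not past the threshold (0.0529 to 0.502). HLA-G, PSMB8 and PSME3 had no probe set left in that fit, so their calls rest on the suffixes _s_at and _x_at.

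Peptide supply came first in the pathway. Of 6 measured genes of the immunoproteasome (the form of the proteasome that favours peptides fit for class I) and its activators 3 rose, 1 fell and 2 did not pass (list median 0.257). PSMB9, a catalytic subunit, read −0.54, −0.92 and −0.70 in the controls and 0.54, 0.97 and 1.01 with cocoa, so that the groups were far apart (log2 difference 1.56, SE 0.136, limma adjusted p = 0.000178). PSMB8, another catalytic subunit, rose by 0.57 (SE 0.0778, adjusted p = 0.0018). On chromosome 6 the order of the protein-coding genes is TAP2, PSMB8, TAP1 and PSMB9, and the promoter windows of TAP1 and PSMB9, which point away from each other, share 13 bases. PSMB9 minus TAP1 was −0.409, −0.59 and −0.377 in the controls and 0.409, 0.434 and 0.686 with cocoa, so the groups did not overlap (difference 0.97; exact two-sided permutation p = 0.1, the smallest possible). PSME1, a subunit of the activator ring, was named after its value was seen. It rose by 0.33 (SE 0.0663, adjusted p = 0.0117), with 0.0538 without control array 2. PSME3, the subunit of a nuclear activator, fell by 0.38 (SE 0.0719, adjusted p = 0.00876), with 0.0502 without control array 2.

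In the list of other peptidases, 1 of 9 measured genes fell and 8 did not pass (list median 0.048). It was TPP2, a cytosolic peptidase, which fell by 0.43 (SE 0.108, limma adjusted p = 0.0278). It kept its call without cocoa array 1 and lost it without any other array (0.0577 to 0.0904). Its difference was −0.161 (adjusted p = 0.502) on the suffix _at alone, −0.252 (0.156) once 18S was a covariate and −0.263 (0.101) once the 5′ minus 3′ difference was. ERAP2, the relative of ERAP1, was named after its value was seen and stood at 0.16 (SE 0.0757, limma adjusted p = 0.203).

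Of 7 partners and editors of peptide loading 2 rose and 5 did not pass (list median −0.0639). TAPBPL, a tapasin relative that edits peptides outside the loading complex, read −0.17, −0.47 and −0.28 in the controls and 0.33, 0.50 and 0.17 with cocoa. The groups were separate and the difference was 0.64 (SE 0.103, limma adjusted p = 0.00428), beside 0.12 for TAPBP itself. PDIA3, the disulfide isomerase bound to tapasin, rose by 0.24 (SE 0.0628, adjusted p = 0.0357). Its call was lost in each of the 6 fits without 1 array (up to 0.142). The chaperones CALR and CANX, named after their values were seen, had log2 differences of −0.20 (SE 0.125, adjusted p = 0.348) and −0.18 (SE 0.103, 0.313).

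Of 6 measured genes for other heavy chains and class I-like molecules 3 rose and 3 did not pass (list median 0.241). HLA-G rose by 0.59 (SE 0.0882, limma adjusted p = 0.00292) on 4 probe sets, a gene close in sequence to HLA-B, HLA-C and HLA-F, so that its reading may share their signal. AZGP1, a secreted protein with a class I fold that binds fat-like molecules, rose by 0.72 (SE 0.085, adjusted p = 0.000958). MR1, which presents vitamin metabolites, rose by 0.26 (SE 0.0678, adjusted p = 0.0348) and kept its call without cocoa array 1, while without any other array it was lost (0.0737 to 0.116). Among 6 measured stress ligands, class I-like proteins that bind the NKG2D receptor of natural killer cells, 1 rose and 5 did not pass (list median −0.0664). It was MICB (log2 difference 0.35, SE 0.0843, adjusted p = 0.024), which kept its call without control array 3 and without cocoa array 2, and lost it without each of the others (0.0513 to 0.0899).

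Of 13 measured regulators of class I transcription 3 rose, 2 fell and 8 did not pass (list median −0.0545). IRF9, the DNA-binding subunit of the complex formed after type I interferon, rose by 1.21 (SE 0.0965, limma adjusted p = 0.000115), and IRF1, a factor of the response element, by 0.52 (SE 0.0789, adjusted p = 0.00314). NFKB1, the precursor of an NF-kappaB subunit, fell by 0.59 (SE 0.0692, adjusted p = 0.000929). These 3 calls held without any 1 array. The other 2 were named after their values were seen. RFX5, which binds the X box with its partners, rose by 0.26 (SE 0.0624, adjusted p = 0.0247). Its call was kept without cocoa array 1 and without cocoa array 2 and lost without each of the others (0.0725 to 0.0955). NFYA, which binds the Y box, fell by 0.45 (SE 0.0953, adjusted p = 0.0148), with 0.0556 without control array 1 and 0.0601 without control array 2, and a difference of −0.295 with either covariate. CIITA, the class II relative of NLRC5, also named after its value was seen, had a difference of −0.016 (SE 0.0802, adjusted p = 0.935). In the list for removal of class I from the surface 1 of 6 genes fell and 5 did not pass (list median 0.0565). It was AP1M1, an adaptor of vesicle transport (−0.31, SE 0.0845, adjusted p = 0.0409), which kept its call without control array 3 and lost it without any other array (0.0523 to 0.14).

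**Figure D5:**
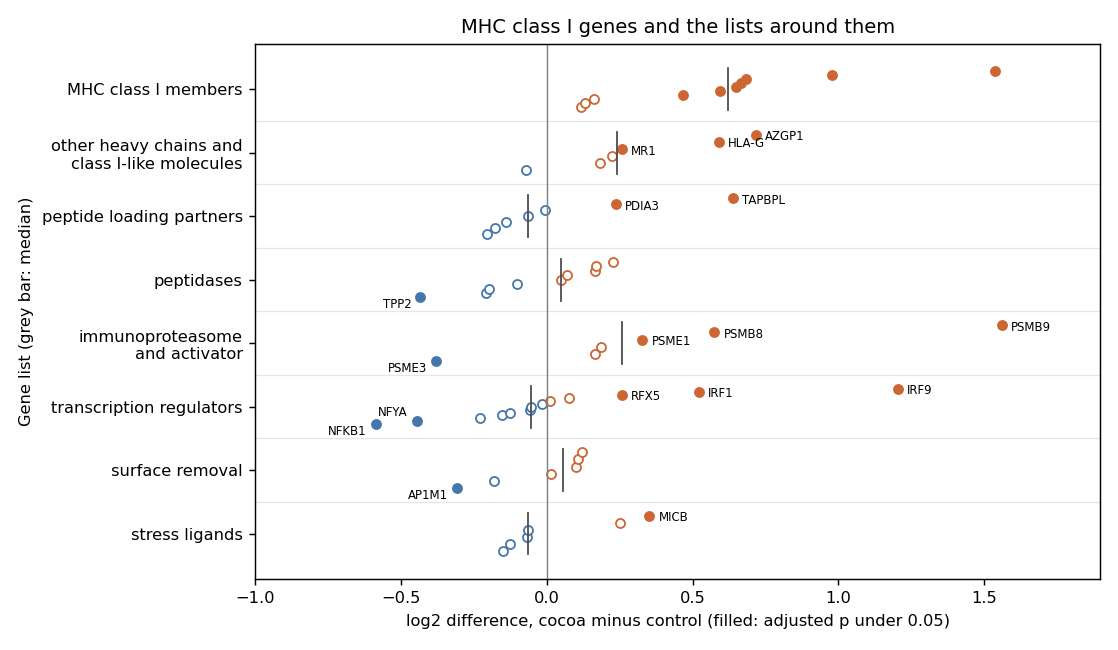
Log2 difference between cocoa and control (x axis) for the 10 members and the genes of 7 pathway lists (y axis), filled where the adjusted p was under 0.05 and named outside the members, with the list median as a grey bar. The members have the highest median, 0.62, and PSMB9 and IRF9 are the list genes nearest to NLRC5.

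Markers of cell types were read on the same scale. Of 8 markers of colon epithelium none passed the test (0 called by limma; log2 differences from 0.0175 to 0.231), and of 8 markers of fibroblasts and endothelium none passed (−0.138 to 0.0693). Of 6 measured leukocyte markers 1 rose, CD14 (0.75, SE 0.114, limma adjusted p = 0.00321), while PTPRC, the common leukocyte antigen, had 0.01 (SE 0.0678, adjusted p = 0.953). Both were named after their values were seen. The summed centred log2 value of the 6 leukocyte markers ran from −0.86 to −0.361 in the controls and from −0.234 to 0.945 with cocoa. Without CD14 the sums of the other 5 overlapped, at −0.237, 0.0595 and −0.143 in the controls and −0.615, 0.305 and 0.668 with cocoa. Whether any of these markers is present cannot be read from the centred table. The cultures are described as the HT29 line, with no other cells named, and a part of other cells in the class I differences was not tested.

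The genes outside the list whose pattern over the 6 arrays was most like the mean of the 10 members were CFB, GPR160, SP110, DUSP16 and CASP1, with Pearson's r from 0.998 to 0.999 over 6 arrays. The mean of the members was −0.20, −0.32 and −0.29 in the controls and 0.24, 0.40 and 0.35 with cocoa. CFB, a complement protein, was the closest and read −0.27, −0.36 and −0.35 in the controls and 0.21, 0.41 and 0.35 with cocoa. The measure of likeness is dominated by the gap between the groups and carries no test.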

How the data were processed

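The authors' deposited table holds log2 expression values of 6 arrays. Per the submitters' processing notes they come from RMA, and the series text names GeneSpring GX; for versions, annotation and filters the sources used here give nothing. The values of each probe set are centred on its median over the arrays (largest absolute median 5e-07), which removes all levels, so no filter on dim probe sets was possible. The base of 2 follows from RMA. Array medians lay between −0.0132 and 0.00724.

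The platform annotation gave the gene symbols: 41091 probe sets had 1 symbol, 1801 several and 11721 none, and 62 control probe sets were left out. Probe sets of 1 gene were averaged. Cocoa was compared with control in limma 3.58.1 (lmFit, eBayes; R 4.3.3) over all genes and, separately, all probe sets, with a threshold of 0.05 after Benjamini-Hochberg adjustment. The steps were checked on simulated data with 50 changed genes of each size. Of log2 changes of 0.3 they recovered 16%, of 0.5 64% and of 1 98%. The simulation held far fewer changed genes than the 2666 called here, which makes the adjusted threshold stricter in it. These shares therefore do not give the recovery in the data, but small differences can go uncalled. No 2 arrays were copies: the SD of differences between arrays was at least 0.175. Named were the members, up to 3 called genes of each list by size, and the 5 genes most like the members; genes outside this rule are marked. The members and lists were chosen with earlier results of these data known. Alternatives were the replicate block, a robust prior, array weights, quantile normalisation, median centring of arrays, removal of the suffixes _s_at and _x_at, the median of probe sets, 2 covariates, a 1.5-fold limit and leaving out each array. Promoters were aligned with Biopython 1.88. A motif and some listed genes are not reported here.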

Additional observations from a re-analysis of the deposited data

How the results depend on the processing

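Under 15 alternatives or fewer per gene, the members gave 147 values, of which 143 kept their direction and their side of the threshold. The others were TAP1 with the 18S covariate (0.465, limma adjusted p = 0.0548), B2M with the median of its probe sets (0.223, 0.0392), and B2M (−0.0362) and ERAP1 (−0.00798) without the probe sets of the suffixes _s_at and _x_at, where the sign turned. That last fit holds fewer probe sets: 4 of 7 members, 5 of 12 member probe sets and 11 of 44 pathway genes were called. With a limit of 1.5-fold, 446 genes and 6 pathway genes were called. The 18S covariate left 1103 genes and 8 pathway genes, and the 5′ to 3′ covariate 1411 and 11; the cause was not tested. Without 1 array, 7 members were called in each fit, 14 to 19 member probe sets, 8 to 15 pathway genes and 1315 to 2881 of all genes. The other named genes gave 252 values, of which 195 kept their call and 57 lost it, all with the same sign. The groups share replicate numbers, and the labels do not say whether these mark a shared culture or day. The deviations of same-numbered arrays from their group means correlated at −0.12, −0.00892 and −0.00311. Of the arrays, 0 of 6 correlated best with its own number. With 3 arrays per group, whose deviations depend on each other, these values cannot show or exclude a pairing. With the replicate block 7 members, 17 member probe sets, 13 pathway genes and 1947 of all genes were called. No signal over background is known, and 3 arrays per group limit the precision.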
